A study of Homo sapiens with 8 samples.

Results

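The receptors, substrates and binding proteins of the insulin and insulin-like growth factor (IGF) system were followed as a set of 10 genes, IGFBP1, IGFBP2, IGFBP3, IGFBP4, IGFALS, IGF1R, IGF2R, INSR, IRS1 and IRS2, matched by symbol among the 58735 genes of the deposited table. RNA was measured in HepG2, an established line grown from a human liver tumour. There were 4 libraries from cells that carried a lentivirus made to overexpress DNMT3A, an enzyme that places new methyl groups on the cytosine of CG dinucleotides, and 4 from cells that carried a control lentivirus. Both groups were the same line, labelled DNMT3A overexpression in the first and WT in the controls, both received vectors whose names hold pLV and EGFP, and both were kept in DMEM with 10% fetal bovine serum and antibiotics. The sources used here give neither the promoter that drives the transgene nor the number of infections or any selection of clones. No label says that libraries of a group came from separate cultures, and each p-value therefore reflects how far these libraries scatter, which could be technical scatter alone.

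Insulin and the IGFs bind receptor tyrosine kinases, INSR and IGF1R, which phosphorylate the IRS adaptor proteins and through them turn on PI3-kinase and AKT. AKT keeps the FOXO transcription factors out of the nucleus, so genes that FOXO factors switch on, IGFBP1 and the gluconeogenic enzymes PCK1 and G6PC among them, are kept low by insulin in liver. Outside the cell most IGF is held by binding proteins, and the liver is a main source both of these proteins and of IGFALS, which joins IGF and IGFBP3 or IGFBP5 in the large complex of the blood. IGF2R is the mannose 6-phosphate receptor, which takes IGF2 to the lysosome and carries no kinase.

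Sequence ahead of the RefSeq start of 9 of the 10 genes was found in RefSeq's promoter table (build GRCh38.p14), as 11 windows of 250 bases, of which IGFBP2 has 3; IGFBP1 had no entry. DNMT3A acts on CG, so 3 windows are shown 5′ to 3′ with each CG in capitals: that of IGFALS, the member that fell, that of IGFBP3, a low member whose groups were apart, and that of IGF1R, the window with the most CG. The windows lie at chr16:1794909-1795158 on the minus strand for IGFALS, chr7:45921273-45921522 on the minus strand for IGFBP3 and chr15:98648289-98648538 on the plus strand for IGF1R. RefSeq starts can differ from those of the deposited table: the IGFBP3 window and 2 of the 3 IGFBP2 windows lie inside the span the table gives the gene, the IGFALS window overlaps that span at its end, and the others lie outside it.
IGFALS: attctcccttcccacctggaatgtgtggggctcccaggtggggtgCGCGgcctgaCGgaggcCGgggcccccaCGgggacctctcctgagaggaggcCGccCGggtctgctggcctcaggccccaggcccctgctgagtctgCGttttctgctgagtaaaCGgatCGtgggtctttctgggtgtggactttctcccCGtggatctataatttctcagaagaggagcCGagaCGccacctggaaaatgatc
IGFBP3: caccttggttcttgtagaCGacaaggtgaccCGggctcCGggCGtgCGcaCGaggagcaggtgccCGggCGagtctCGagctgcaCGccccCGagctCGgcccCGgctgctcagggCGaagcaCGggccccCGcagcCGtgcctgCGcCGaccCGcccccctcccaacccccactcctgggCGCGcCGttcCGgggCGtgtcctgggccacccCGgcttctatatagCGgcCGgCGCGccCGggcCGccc
IGF1R: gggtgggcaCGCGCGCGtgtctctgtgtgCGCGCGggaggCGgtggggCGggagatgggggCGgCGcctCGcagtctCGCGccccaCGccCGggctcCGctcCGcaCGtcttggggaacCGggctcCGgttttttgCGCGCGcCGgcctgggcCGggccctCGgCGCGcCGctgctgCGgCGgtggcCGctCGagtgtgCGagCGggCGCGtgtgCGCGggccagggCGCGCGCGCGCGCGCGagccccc
The IGFALS window held 13 CG, the IGFBP3 window 32 and the IGF1R window 48, beside a median of 11 over all 35116 windows of that length. Fewer CG than these were found in 53.4%, 90.5% and 99.7% of all windows. The other members ran through IRS2 with 42, IRS1 with 39, IGF2R with 33, INSR with 28 and IGFBP4 with 24, to IGFBP2 with 7, 22 and 4 in its 3 windows. The letters GGGCGG, a box bound by SP1 and its relatives, read on both strands, occurred in 42.6% of all windows and in every window of these genes except 1 of IGFBP2. The FOXO-type letters CAAAACA and GTAAACA, on both strands, occurred in 4.3% and 2.98% of all windows; IRS2 held CAAAACA once, and the other windows of the set held neither. A match is only a match of letters, and DNA methylation was not analysed here.

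Each library held 15911019 to 17677093 reads, recovered from the deposited FPKM (fragment counts scaled for gene length and sequencing depth). The total that the FPKM scale implies was not exactly this sum. In DNMT3A library 2 it was 18310774 against 17626137 recovered reads, and in control library 3 it was 15829504 against 15911019. DNMT3A was at 9.75, 10.2, 8.51 and 7.26 FPKM in DNMT3A libraries 1 to 4, against 3.62, 3.89, 3.45 and 3.64 FPKM in control libraries 1 to 4, so every DNMT3A library was above every control. All 10 hepatocyte markers averaged at least 1 FPKM, with a summed level of 9838 to 12737 FPKM in DNMT3A and 10681 to 11241 FPKM in control libraries. Of these 10, AFP, FGB and TTR rose (log2 1.61, 1.61 and 1.38) and 0 fell. That is 30% called, beside 9.93% of all genes tested that rose and 10.6% that fell. Of the 10, 9 were above 0, and their median fold change was 0.19, beside -0.01 for all genes tested. The part of these markers in the changes of IGFBP1, IGFALS and the insulin-controlled genes was not tested. Of the markers of other cells none of 8 for fibroblasts, 0 of 6 for endothelium and 1 of 6 for leukocytes reached that mean. Their summed level was 0.509 to 0.774 FPKM in DNMT3A and 0.387 to 0.684 FPKM in control libraries for fibroblasts (PDGFRA and LUM listed at 0), and 0.655 to 0.806 FPKM in DNMT3A and 0.526 to 0.646 FPKM in control libraries for endothelium (KDR and TEK listed at 0). The leukocyte sum, 314 to 345 FPKM in DNMT3A and 198 to 264 FPKM in control libraries, was nearly all LYZ, which averaged 279.5 FPKM and rose (log2 0.48), while PTPRC and CD3E, which define leukocytes, were listed at 0. DNMT3A libraries 2 and 4 stood farthest from the others of their group, with a median absolute log2 distance of 0.138 and 0.135, against 0.0697 to 0.0973 for the other 6 libraries.

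IGFBP1 rose and IGFALS fell, and the other 5 members that could be tested did not pass. A fold change is the difference of the DNMT3A and control means of log2(FPKM + 1), a scale that understates that of low genes, and adjusted p is that of limma over all 11620 genes with a mean of at least 1 FPKM, with a threshold of 0.05. IRS2, IGFBP2 and IGFBP3 were below that mean. The 2 members called of 7 tested, 28.6%, stand beside 20.6% of all genes tested, of which 9.93% rose and 10.6% fell, so with so few members their number of calls does not stand apart from the background. Their median fold change was 0.07, with 6 of 7 above 0, and that of all genes tested was -0.01. Groups did not overlap for 25.1% of all genes tested, and among the 7 tested members for IGFALS alone.

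**Figure D1:**
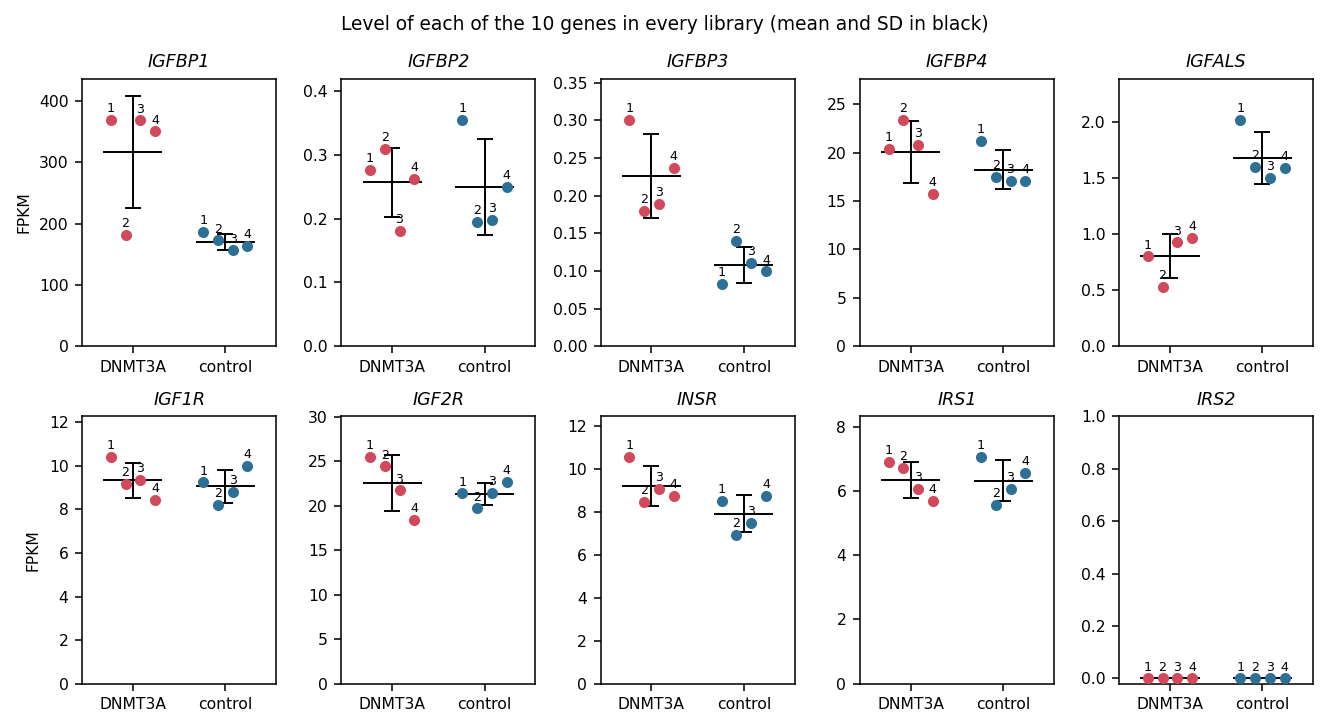
Level of the 10 genes in FPKM (vertical axes, each from 0, or at 0 for IRS2) in DNMT3A libraries (left, red) and control libraries (right, blue), numbered, with the mean and SD of 4 libraries in black. IGFBP1 reached 350 FPKM or more in DNMT3A libraries 1, 3 and 4 and 181 FPKM in library 2, IGFALS and IGFBP3 had groups that did not overlap, and IRS2 was at 0 in all 8. Of all genes tested 25.1% had groups that did not overlap.

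The 10 genes covered a wide span of levels. Averaged over the 8 libraries, IGFBP1 was the most abundant with 243.5 FPKM, ahead of 99.6% of protein-coding genes. IGF2R followed with 21.9, IGFBP4 with 19.2, IGF1R with 9.21, INSR with 8.55 and IRS1 with 6.34 FPKM. IGFALS was at 1.24, IGFBP2 at 0.254 and IGFBP3 at 0.167 FPKM, and IRS2 was listed at 0. Libraries of IGF2R and IGFBP4 overlapped in both groups, as did those of IGF1R and INSR, so neither pair has a settled order; INSR and IRS1 overlapped in control libraries, and IGFBP2 and IGFBP3 in DNMT3A libraries.

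IGFBP1 (ENSG00000146678, hg38 chr7:45888357-45893668, plus strand), the secreted binding protein that insulin represses in liver, was at 370, 181, 368 and 350 FPKM in DNMT3A libraries 1 to 4, against 186, 172, 156 and 164 FPKM in control libraries 1 to 4. DNMT3A libraries 1, 3 and 4 lay well above every control, while library 2 lay among the controls, between control libraries 1 and 2. The mean was 317 ± 91.1 FPKM in DNMT3A and 170 ± 12.7 FPKM in control libraries (SD, n = 4 each), a log2 fold change of 0.85 with a standard error of 0.21 (limma adjusted p = 0.0185). Only 1.46% of tested genes had a larger change in size. Depth did not limit it, with 5486 to 10664 reads per DNMT3A library and 4093 to 4908 per control. Library 2 had the highest DNMT3A level of the 8, 10.2 FPKM, and the lowest IGFBP1 level of its group. Without that library the fold change was 1.09 (limma adjusted p = 6.81e-05). The call was lost without DNMT3A library 1 (0.0529) or 3 (0.0534), without control library 3 (0.0525) and with no filter on low genes (0.0834). In bulk RNA a change in the number of cells that make a transcript and a change in the amount per cell cannot be told apart.

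The other binding proteins were far less abundant. IGFBP4 (ENSG00000141753, chr17:40443461-40457731, plus strand), which holds IGF away from its receptor until the protease PAPPA cuts it, was at 20.4, 23.4, 20.8 and 15.7 FPKM in DNMT3A libraries and 21.2, 17.5, 17.1 and 17.1 FPKM in control libraries. Its groups overlapped at both ends, and the fold change of 0.12 ± 0.11 (standard error) did not pass (limma adjusted p = 0.478). IGFBP2 (ENSG00000115457, chr2:216632828-216664436, plus strand), often the main binding protein of fetal tissue, was at 0.276, 0.309, 0.181 and 0.262 FPKM in DNMT3A libraries and 0.356, 0.195, 0.199 and 0.25 FPKM in control libraries. With 15 to 27 reads in each library of both groups it was not tested. Its summed reads were 87 in DNMT3A and 79 in control libraries. Scaled for the total recovered reads of each group, their ratio was 1.05 (exact 95% interval 0.767 to 1.45, which covers counting error only).

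IGFBP3 (ENSG00000146674, chr7:45912245-45921874, minus strand), the main carrier of IGF in blood and the neighbour of IGFBP1 on chromosome 7, was at 0.301, 0.179, 0.189 and 0.236 FPKM in DNMT3A libraries and 0.0824, 0.14, 0.111 and 0.0994 FPKM in control libraries. All 4 DNMT3A libraries were above all 4 controls, at levels too low for the filter. The reads behind these values were 24, 15, 15 and 19 in DNMT3A and 6, 11, 8 and 8 in control libraries, 73 against 33 in sum. Scaled for the total recovered reads of each group, the ratio for IGFBP3 was 2.11 (exact 95% interval 1.38 to 3.29, counting error only). With no filter its fold change was 0.15 and missed the threshold (limma adjusted p = 0.0876). With voom in limma on the recovered reads, keeping genes with at least 5 reads in at least 4 libraries, it was 1.03 (limma adjusted p = 0.045), in a fit that called 19.2% of 16093 genes; both that fit and its filter were chosen after the data were seen. DNMT3A library 2, low for IGFBP1, was also the lowest of its group for IGFBP3.

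Summed over IGFBP1 to IGFBP4, the transcripts of binding proteins came to 390.5, 205, 389 and 366 FPKM in DNMT3A libraries and 207.5, 190, 174 and 181 FPKM in control libraries. IGFBP1 alone made up 94.6%, 88.4%, 94.6% and 95.6% of that sum in DNMT3A libraries and 89.6%, 90.6%, 90.0% and 90.4% in control libraries. The sum therefore followed IGFBP1, and in DNMT3A library 2 it was within the controls.

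IGFALS (ENSG00000099769, chr16:1790413-1794971, minus strand), the acid-labile subunit that liver secretes, was at 0.8, 0.532, 0.925 and 0.963 FPKM in DNMT3A libraries and 2.02, 1.6, 1.5 and 1.59 FPKM in control libraries. Every DNMT3A library was below every control, with library 2 the lowest. The mean was 0.805 ± 0.195 FPKM in DNMT3A and 1.68 ± 0.234 FPKM in control libraries (SD, n = 4 each), a fold change of -0.57 ± 0.11 (standard error; limma adjusted p = 0.00603). The reads were 33, 23, 38 and 40 in DNMT3A and 76, 65, 56 and 66 in control libraries, 134 against 263 in sum. Scaled for the total recovered reads of each group, the ratio for IGFALS was 0.487 (exact 95% interval 0.393 to 0.602, counting error only). The pseudocount of 1 shrinks so low a gene, and the fold change was -0.99 with a pseudocount of 0.1 (limma adjusted p = 0.00888) and -1.05 with voom (0.00293). A gene on the same strand, SPSB3, shares 64 exon bases with IGFALS and reached at most 0.0983 FPKM in a library.

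**Figure D2:**
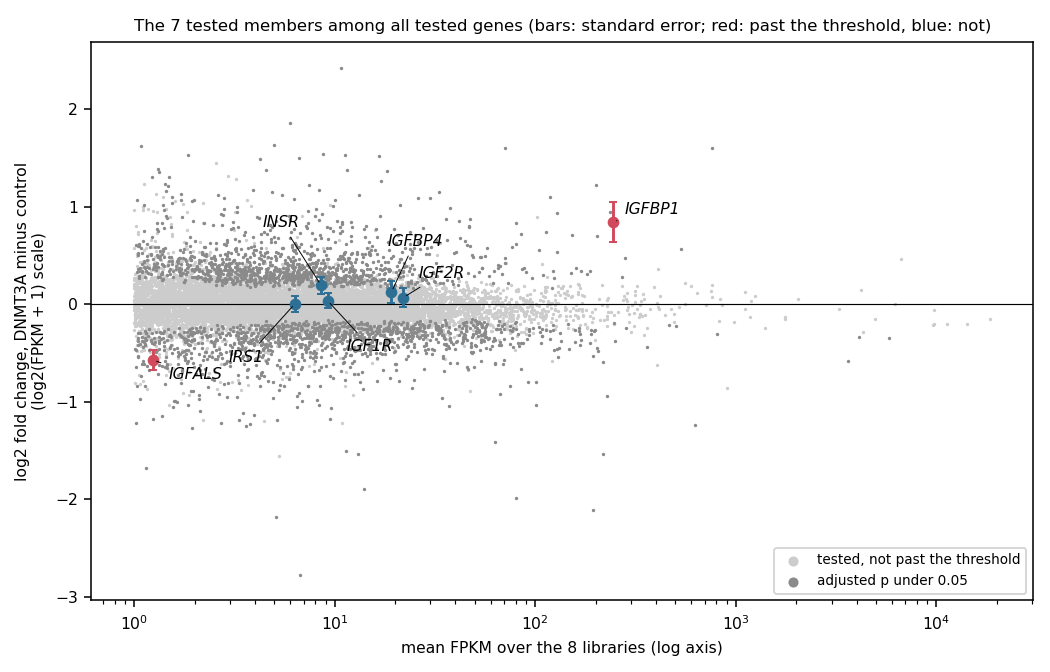
Mean FPKM over the 8 libraries (horizontal, log axis) against the log2 fold change of DNMT3A minus control (vertical) for all 11620 tested genes in grey and the 7 tested members with their standard errors. IGFBP1 at 0.85 and IGFALS at -0.57 stand off the zero line, and the other 5 members lie between 0.01 and 0.20.

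None of the 3 receptors passed the test, and INSR came closest. INSR (ENSG00000171105, chr19:7112255-7294034, minus strand), the insulin receptor, was at 10.5, 8.46, 9.06 and 8.73 FPKM in DNMT3A libraries and 8.5, 6.92, 7.48 and 8.72 FPKM in control libraries. DNMT3A libraries 1, 3 and 4 exceeded every control, library 4 only narrowly, and library 2 did not. The mean was 9.19 ± 0.927 FPKM in DNMT3A and 7.91 ± 0.849 FPKM in control libraries (SD, n = 4 each), a fold change of 0.20 ± 0.09 (standard error) that did not pass (limma adjusted p = 0.138). It passed with array weights, which count libraries far from their group for less (0.22, limma adjusted p = 0.0425), and with voom (0.24, 0.0485), though not with voom and the low-count filter (0.0514).

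IGF1R (ENSG00000140443, chr15:98648539-98964530, plus strand), the kinase receptor of IGF1 and IGF2, was at 10.4, 9.18, 9.35 and 8.45 FPKM in DNMT3A libraries and 9.25, 8.21, 8.81 and 10.0 FPKM in control libraries. The groups lay over each other, and the fold change was 0.04 ± 0.08 (standard error; limma adjusted p = 0.750). Its sign was not settled, being -0.01 without DNMT3A library 1 and just under 0 without control library 2. IGF2R (ENSG00000197081, chr6:159969099-160113507, plus strand) was at 25.5, 24.4, 21.8 and 18.4 FPKM in DNMT3A libraries and 21.4, 19.7, 21.5 and 22.7 FPKM in control libraries. DNMT3A libraries held both its highest and its lowest value, and the fold change was 0.07 ± 0.09 (standard error; limma adjusted p = 0.646). None of the annotated genes that overlap IGF1R or IGF2R shares an exon base with them, and AIRN, the antisense RNA of IGF2R, reached at most 0.026 FPKM.

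INSR and IGF1R can join in hybrid receptors, so their ratio was taken within each library. INSR over IGF1R, in FPKM, was 1.01, 0.921, 0.968 and 1.03 in DNMT3A libraries and 0.919, 0.843, 0.849 and 0.87 in control libraries. The lowest DNMT3A library was just above the highest control, and the means were 0.984 ± 0.0497 in DNMT3A and 0.871 ± 0.0346 in control libraries (SD, n = 4 each). This ratio was picked after its values were seen and was not tested: of the 21 ratios among the 7 tested members 7 had groups apart, and of the 10 without IGFBP1 and IGFALS it was the only one. The other ratios with groups apart all held IGFALS, whose own groups were apart.

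The substrates differed from each other in whether they were found at all. IRS1 (ENSG00000169047, chr2:226731317-226799759, minus strand), the first docking protein of both kinase receptors, was at 6.91, 6.73, 6.08 and 5.69 FPKM in DNMT3A libraries and 7.06, 5.58, 6.07 and 6.58 FPKM in control libraries. The groups covered nearly the same range, with a fold change of 0.01 ± 0.08 (standard error; limma adjusted p = 0.963), whose sign turned in 4 of the 8 fits with a library left out. IRS2 (ENSG00000185950, chr13:109752698-109786568, minus strand), the other main IRS protein of liver, was listed at 0 in all 8 libraries. A floor of 3 reads corresponds to 0.0201 to 0.0212 FPKM in DNMT3A and 0.0209 to 0.0233 FPKM in control libraries, for counting error only.

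Of 15 housekeeping genes none was at 0 in any library, and their lowest value was 12.9 FPKM. Of 19951 protein-coding genes 3865 were at 0 in all 8 libraries. An antisense gene, AL162497.1, shares 115 exon bases with IRS2 and was also at 0. Whether the counting dropped reads of IRS2 was not tested. Genes within 1 Mb on chromosome 13 were measured, among them RAB20 at 10.4 ± 1.12 FPKM in DNMT3A and 14.8 ± 0.805 FPKM in control libraries (SD, n = 4 each) and NAXD at 11.1 ± 0.504 FPKM in DNMT3A and 13.4 ± 0.444 FPKM in control libraries. COL4A2 averaged 0.0403 FPKM in DNMT3A and 0.165 FPKM in control libraries, and COL4A1 0.00388 FPKM in DNMT3A and 0 FPKM in control libraries. CARS2 averaged 5.27 FPKM in DNMT3A and 6.59 FPKM in control libraries, and ING1 3.12 FPKM in DNMT3A and 2.97 FPKM in control libraries. Lower levels were not particular to this stretch. Of 199 tested genes on chromosome 13, 66 fell and 9 rose, beside 10.6% of all genes tested that fell. Their median fold change was -0.15, and that of all genes tested was -0.01. RAB20, NAXD, CARS2, ING1 and the collagens are named for their place beside IRS2 and were chosen after the data were seen.

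Of the 3 ligands only IGF2 reached the filter. IGF2, the fetal growth factor that hepatoma cells often keep making, was at 39.0, 26.7, 24.5 and 14.6 FPKM in DNMT3A libraries and 18.3, 12.8, 13.4 and 15.2 FPKM in control libraries. DNMT3A libraries 1 to 3 were above every control and library 4 was among them. The fold change of 0.71 missed the threshold (limma adjusted p = 0.0643), and it passed with array weights (0.00888), with voom (0.0127) and without DNMT3A library 4 (0.95, 0.00537). A second row named IGF2 in the table was at 0 throughout. DNMT3A library 4, the lowest of its group for IGF2, was above every control for IGFBP1, and library 2, the lowest for IGFBP1, was above every control for IGF2.

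Among 8 other secreted binding or IGFBP-related proteins 3 were tested, and 1 rose, beside 9.93% of all genes tested that rose. IGFBP7, a low-affinity relative, averaged 2.97 ± 0.424 FPKM in DNMT3A and 1.99 ± 0.302 FPKM in control libraries (SD, n = 4 each; log2 0.41, limma adjusted p = 0.0202). It lost its call without DNMT3A library 3 (0.0597), control library 2 (0.0583) or control library 3 (0.0595), and with no filter (0.0732). Of 10 proteases and inhibitors that free IGF from binding proteins 3 were tested and 0 passed in limma, with 0 also at an unadjusted p under 0.05 and 0 with voom. ADAM9, a protease reported to cut IGFBPs, had a log2 fold change of 0.05, and STC2, which inhibits PAPPA and was named after values were seen, one of 0.09.

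Of 14 genes for receptor maturation, ligand breakdown and mannose 6-phosphate sorting 12 were tested, 1 rose and 0 fell. This is 8.33% called, beside 20.6% of all genes tested. GGA2, an adaptor that sorts mannose 6-phosphate receptors, averaged 20.4 ± 0.487 FPKM in DNMT3A and 18.1 ± 0.857 FPKM in control libraries (SD, n = 4 each; log2 0.17, limma adjusted p = 0.0481). That call was lost whichever single library was left out (0.0522 to 0.13), with no filter (0.055), with no trend (0.0627) and without chromosomes 13 and 14 (0.0504). M6PR, the smaller mannose 6-phosphate receptor, had a fold change of -0.18 (limma adjusted p = 0.066) and passed with array weights (0.00771) and without DNMT3A library 2 (0.0128). FURIN, which cleaves the receptor precursors, had one of -0.19 (limma adjusted p = 0.249).

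Of 22 adaptors that dock on the receptors or their substrates 18 were tested, 5 rose and 1 fell, with a median fold change of 0.13 and 16 above 0. That is 33.3% called, beside 20.6% of all genes tested, as a description only. GRB7 averaged 14.3 ± 1.36 FPKM in DNMT3A and 9.75 ± 1.84 FPKM in control libraries (SD, n = 4 each; log2 0.52, limma adjusted p = 0.0123). SH2B1, which binds the activated receptors and favours their signal, averaged 5.24 ± 0.670 FPKM in DNMT3A and 3.38 ± 0.245 FPKM in control libraries (log2 0.51, limma adjusted p = 0.00402), with every DNMT3A library above every control. GRB10, which binds the same receptors and dampens them, fell, at 2.74 ± 0.131 FPKM in DNMT3A and 3.95 ± 0.417 FPKM in control libraries (log2 -0.40, limma adjusted p = 0.0051). CRKL and the ubiquitin ligase CBL rose by 0.25 and 0.29 on the log2 scale (limma adjusted p = 0.0144 and 0.0235), CBL being named after values were seen. GRB2, the link to RAS, had a fold change of 0.07 that did not pass. The call of CBL was lost without DNMT3A library 1 or control library 2 or 3 (0.0622 to 0.0704), and those of CBL (0.0678) and GRB7 (0.0519) with no filter.

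Of 21 phosphatases and other brakes 17 were tested, 0 rose and 2 fell, with a median of -0.04. Their share called was 11.8%, beside 20.6% of all genes tested. TRIB3, a pseudokinase reported to bind and restrain AKT, averaged 51.1 ± 2.70 FPKM in DNMT3A and 65.7 ± 3.52 FPKM in control libraries (SD, n = 4 each; log2 -0.36, limma adjusted p = 0.00386). FBXW8, part of the ligase that degrades IRS1, averaged 1.68 ± 0.131 FPKM in DNMT3A and 2.28 ± 0.125 FPKM in control libraries (log2 -0.29, limma adjusted p = 0.017). The receptor phosphatase PTPRF had a fold change of 0.19 (limma adjusted p = 0.305).

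Of 25 genes of the PI3K, AKT and mTOR chain 21 were tested, 3 rose and 2 fell, with a median of 0.06. Their share called was 23.8%, beside 20.6% of all genes tested. RHEB, the small GTPase that activates mTOR complex 1, fell, at 12.4 ± 1.59 FPKM in DNMT3A and 16.7 ± 0.949 FPKM in control libraries (SD, n = 4 each; log2 -0.41, limma adjusted p = 0.00977). PIK3R1, the regulatory subunit that binds IRS proteins, also fell, at 4.39 ± 0.377 FPKM in DNMT3A and 5.61 ± 0.527 FPKM in control libraries (log2 -0.29, limma adjusted p = 0.0248). TSC1, which holds RHEB inactive, rose by 0.24, the kinase SGK1 by 0.27 and the kinase RPS6KB1, named after values were seen, by 0.22 on the log2 scale (limma adjusted p = 0.0382, 0.0429 and 0.0344). DDIT4, a stress-induced inhibitor of mTOR complex 1, was at 21.2, 22.3, 22.2 and 14 FPKM in DNMT3A libraries and 8.54, 19.8, 12.6 and 7.04 FPKM in control libraries. DNMT3A library 4 and control library 2 each lay inside the other group's range, and the fold change of 0.76 missed the threshold (limma adjusted p = 0.0754). EIF4EBP1 had a fold change of -0.13, and AKT2 and MTOR, named after values were seen, had 0.07 and 0.06. Except for RHEB these calls hung on single libraries: PIK3R1 lost its call without DNMT3A library 3 or control library 2, 3 or 4 (0.0556 to 0.072), SGK1 without DNMT3A library 1, 3 or 4 or control library 2, 3 or 4 (0.0529 to 0.114), TSC1 without any library but control library 4 (0.0547 to 0.0996) and RPS6KB1 without any but DNMT3A library 2 (0.053 to 0.0811), and all 4 with no filter (0.0692 to 0.117), while DDIT4 passed without DNMT3A library 4 (0.0438) or control library 2 (0.0156), with array weights (0.0279) and with voom (0.0161). With quantile normalization TSC1 (0.0593) and SGK1 (0.0515) were lost, and the list's 5 calls ranged from 1 to 8 as libraries were left out.

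**Figure D3:**
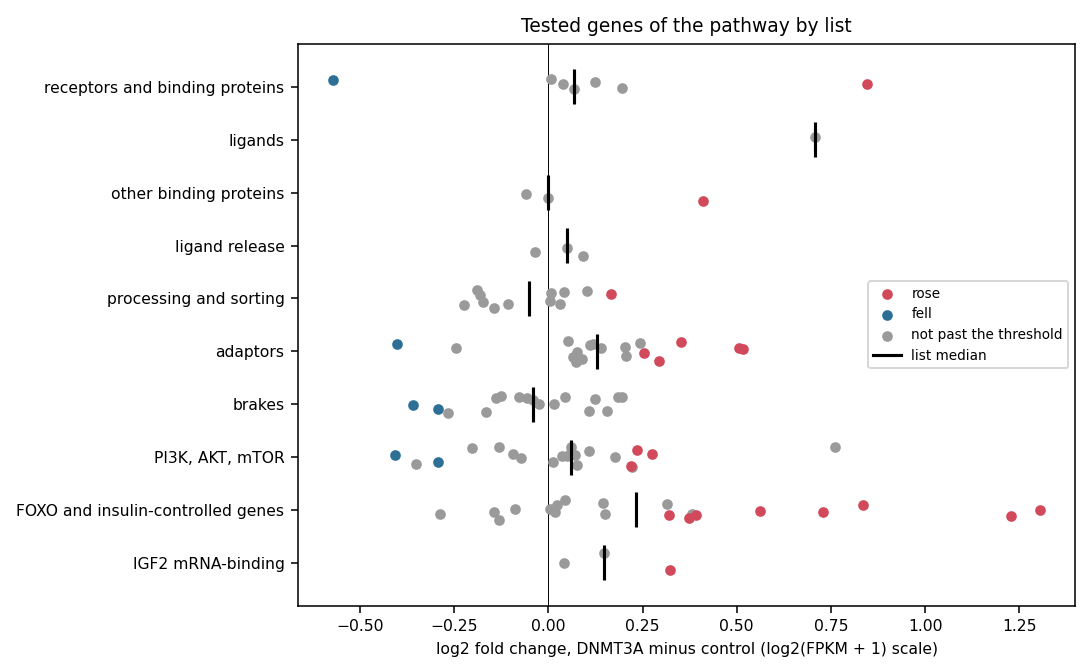
Log2 fold change of DNMT3A minus control (horizontal) for each tested gene of the 10 receptors and binding proteins and of 9 further lists (rows), red where it rose, blue where it fell, grey where it did not pass, with the list median as a black bar. The FOXO and insulin-controlled genes reach farthest to the right, with PCK1 at 1.30 and CITED2 at 1.23, and their median of 0.23 is above that of the receptors and binding proteins, 0.07.

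Of 25 FOXO factors and genes known to be controlled by insulin or FOXO factors in liver, the group to which IGFBP1 belongs by its control, 20 were tested, 8 rose and 0 fell. Their median fold change was 0.23, beside -0.01 for all genes tested. The list and its contrast were chosen with results of these libraries known, and its 8 calls of 20, 40%, stand beside 9.93% of all tested genes that rose as a description only. PCK1, the enzyme that commits carbon to gluconeogenesis, was at 2.4, 1.43, 2.47 and 2.39 FPKM in DNMT3A libraries and 0.304, 0.247, 0.213 and 0.325 FPKM in control libraries. Every DNMT3A library was several times above every control, and library 2 was again the lowest (log2 1.30, limma adjusted p = 0.000208). For a gene this low the pseudocount matters, and the fold change of PCK1 was 2.59 with a pseudocount of 0.1 and 2.98 with voom.

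CITED2, a coregulator that FOXO factors induce, averaged 10.8 ± 1.90 FPKM in DNMT3A and 4.12 ± 1.22 FPKM in control libraries (SD, n = 4 each; log2 1.23, limma adjusted p = 0.00139). The cyclin CCNG2 averaged 3.15 ± 0.551 FPKM in DNMT3A and 1.31 ± 0.0682 FPKM in control libraries (log2 0.83, limma adjusted p = 0.000771). The repressor BCL6 averaged 9.84 ± 0.630 FPKM in DNMT3A and 5.54 ± 0.358 FPKM in control libraries (log2 0.73, limma adjusted p = 0.000134). TXNIP, SESN1, FOXO3 and FOXO4 rose by 0.56, 0.37, 0.32 and 0.39 on the log2 scale (limma adjusted p = 0.0218, 0.00402, 0.0142 and 0.0137); these 4 were named after values were seen. With voom CCNG2 was at 1.27 and FOXO4 at 0.71. TXNIP lost its call without DNMT3A library 1 or 3 or control library 2 (0.0593 to 0.0636) and with no filter (0.0867).

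Not every gene of that list followed. FOXO1, the FOXO factor most tied to insulin in liver, averaged 7.88 ± 0.959 FPKM in DNMT3A and 8.70 ± 0.418 FPKM in control libraries (SD, n = 4 each), a fold change of -0.13 that did not pass (limma adjusted p = 0.272). FOXO1 lies on chromosome 13, whose 199 tested genes had a median fold change of -0.15. The part of its chromosome in the value of FOXO1 was not tested. G6PC, the enzyme that releases glucose, was at 5.09, 1.86, 3.81 and 2.48 FPKM in DNMT3A libraries and 3.47, 1.29, 1.15 and 3.62 FPKM in control libraries. The groups of G6PC overlapped over most of their range (log2 0.38, limma adjusted p = 0.411; 0.70 with array weights, 0.0768), and library 2 was again the lowest of the DNMT3A group. FASN, which insulin raises, had a fold change of 0.04, whose sign turned with array weights (-0.01) and without DNMT3A library 2 (-0.03), and CDKN1B had one of 0.15 that passed with array weights (limma adjusted p = 0.0173) and without DNMT3A library 2 (0.0308). FOXO1 and G6PC were named after values were seen.

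**Figure D4:**
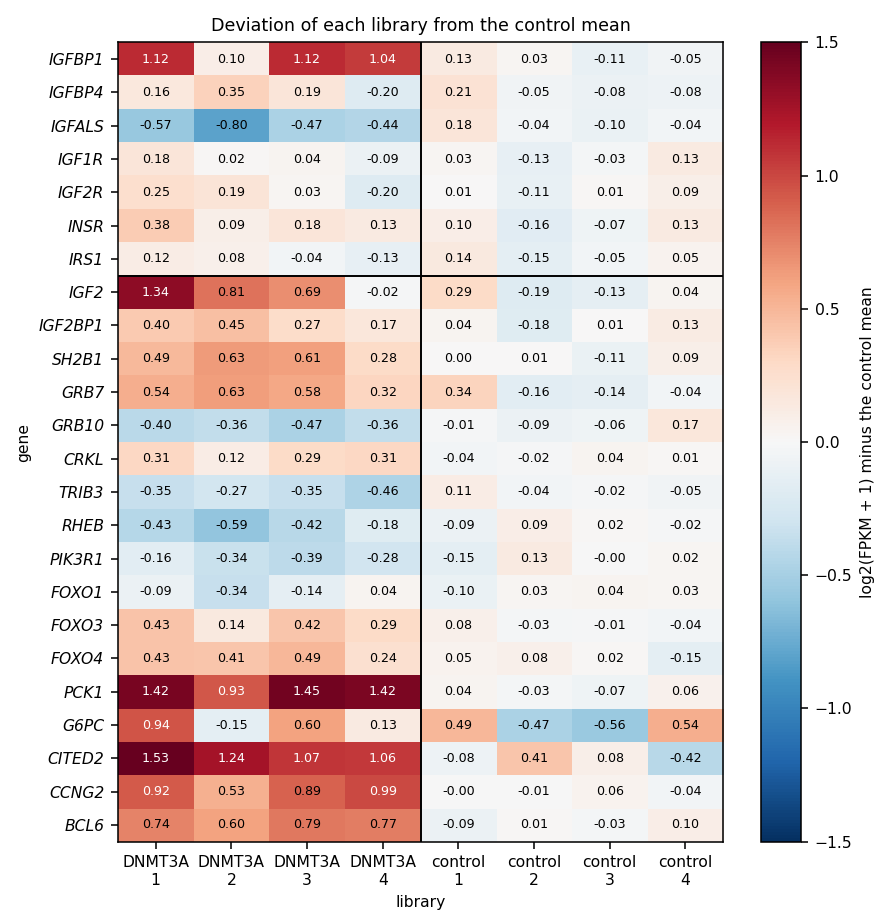
Log2(FPKM + 1) of each library minus the control mean (colour and printed value) for the 7 tested members and 17 pathway genes (rows) in DNMT3A libraries 1 to 4 (left) and control libraries 1 to 4 (right). DNMT3A library 2 has the smallest rise of its group for IGFBP1, PCK1, CCNG2, BCL6 and FOXO3, and the largest fall for IGFALS and RHEB.

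DNMT3A library 2 was the lowest of its group for IGFBP1, IGFBP3, IGFALS and INSR, and for 13 of the 20 tested genes of the FOXO list, 65%. The same library was the lowest for 33.6% of all tested genes and for 39.1% of those that rose, and library 4, the lowest for 34.9% of all tested genes, was so for 6 of the 20. Among the 1154 genes that rose, 35 had library 2 as the only DNMT3A library that did not exceed all controls, IGFBP1 among them. The same count was 29 for library 4, 16 for library 1 and 8 for library 3. The part of this library in these results was not tested beyond the values without it given here. IGFBP2, IGFBP4, IGF1R, IGF2R and IRS1 had other libraries as their lowest.

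The genes whose course over the 8 libraries was most like that of the 2 called members were found on the log2(FPKM + 1) scale. The measure was the smallest root mean square difference, after each gene's control mean was subtracted. Adding 1 shrinks the changes of low genes, so a low and a high gene can match here while their FPKM change by different factors. For IGFBP1 these were YPEL2, with a difference of 0.19, and KDM3A, a histone demethylase, also with 0.19. YPEL2 averaged 2.22 ± 0.484 FPKM in DNMT3A and 0.84 ± 0.150 FPKM in control libraries and KDM3A 11.9 ± 1.94 FPKM in DNMT3A and 6.4 ± 0.0814 FPKM in control libraries (SD, n = 4 each). For IGFALS they were PSAT1, an enzyme of serine synthesis, with a difference of 0.057, and the lipoprotein receptor VLDLR, with 0.0656. PSAT1 averaged 158.5 ± 13.7 FPKM in DNMT3A and 228 ± 12.6 FPKM in control libraries and VLDLR 1.57 ± 0.225 FPKM in DNMT3A and 2.83 ± 0.335 FPKM in control libraries (SD, n = 4 each). IGFALS averaged 0.805 FPKM in DNMT3A and 1.68 FPKM in control libraries, a larger change by factor than that of PSAT1. Its likeness to PSAT1 therefore belongs to this scale.

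Of the 3 proteins that bind IGF2 messenger RNA 1 rose, beside 9.93% of all genes tested that rose. IGF2BP1 averaged 51.5 ± 4.54 FPKM in DNMT3A and 40.9 ± 3.64 FPKM in control libraries (SD, n = 4 each; log2 0.32, limma adjusted p = 0.0227), and lost its call without DNMT3A library 1 (0.0621), control library 2 (0.0583) or control library 3 (0.0559) and with no filter (0.0694). IGF2BP3 had a fold change of 0.15 (limma adjusted p = 0.315) and IGF2BP2 one of 0.04. Over the 9 lists together 98 of 130 genes were tested, 19 rose and 5 fell, 24.5% called beside 20.6% of all genes tested, with a median of 0.06.

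**Figure D5:**
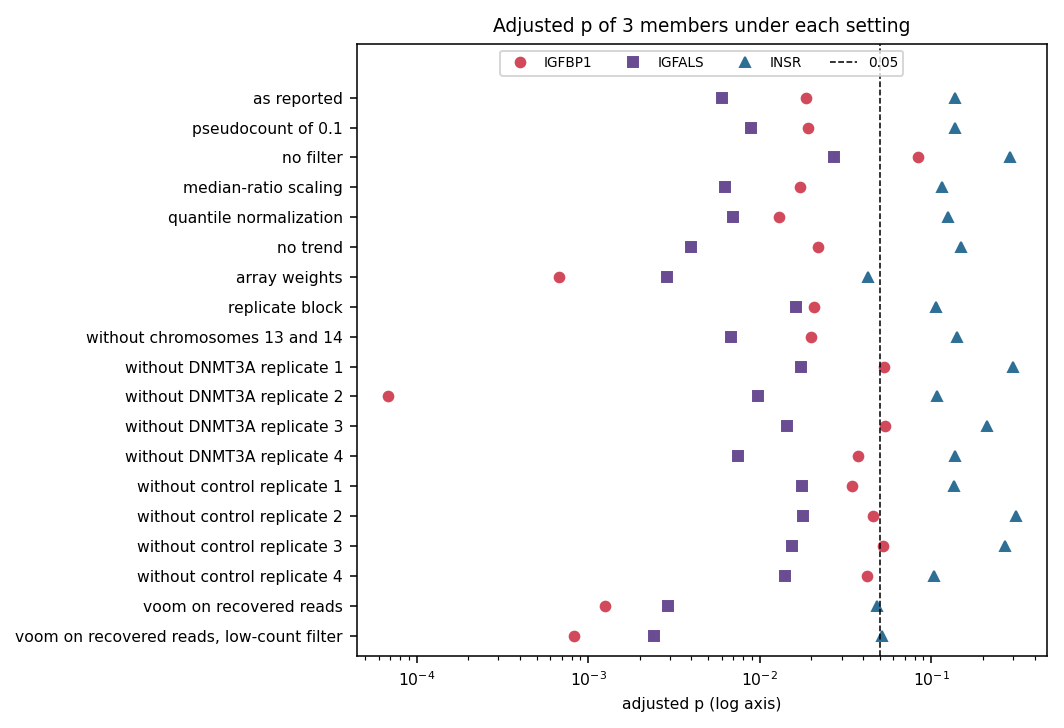
Limma adjusted p (horizontal, log axis) of IGFBP1, IGFALS and INSR as reported and under each alternative setting or with a library left out (rows), with the threshold of 0.05 as a dashed line. IGFALS stays left of the line in every row, IGFBP1 crosses it in 4 rows, and INSR is left of it with array weights and with voom.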

How the data were processed

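Poly-T beads took messenger RNA out of total RNA and random hexamers primed it, per the labels' protocols, which name no step that marks strand. The submitters' processing notes name HISAT2 2.0.5 as aligner and hg38 as genome; the counting program is not given in the sources used here. Values were deposited by the authors as FPKM, with a column for each library (per the file headers). Each FPKM times gene length came out as whole reads for 100% of values (tolerance 0.01 of a read), which gave the recovered reads; gene coordinates were those of GENCODE in hg38 for all 58735 genes. The test foreseen for a table of raw counts was not needed.

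Genes with a mean of at least 1 FPKM were compared on log2(FPKM + 1) with limma 3.58.1 in R 4.3.3 (variance trend, Benjamini-Hochberg over 11620 genes, threshold 0.05), after the fit was tested on simulated data. The 10 genes and all lists were chosen with earlier results of these data known. Named genes are the members, DNMT3A, at most 4 called genes per list, by size of change, and at most 2 more per list by mean level, and 2 look-alikes of each called member; others are marked, and not every allowed gene is named or reported here. Alternatives were quantile normalization, median-ratio scaling, a pseudocount of 0.1, no filter, array weights, no trend, replicate number as a block, leaving out each library or chromosomes 13 and 14 and, added after the data were seen, voom on recovered reads without and with a low-count filter. RefSeq's promoter table (GRCh38.p14) supplied sequences. DNMT3A gave the smallest two-sided exact permutation p that 70 assignments allow, 0.0286.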

Additional observations from a re-analysis of the deposited data

Results flagged for a closer look

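Of 100 groups of 4 libraries, from 51 genes, 7 held a library far from the other 3 of its group by Dixon's gap test, where chance alone flags about 1 in 20. In DNMT3A library 2, IGFBP1 was at 181 FPKM, with a gap of 0.897 of its group's range, PCK1 at 1.43 FPKM, with a gap of 0.925, and CRKL at 35.8 FPKM, with a gap of 0.86; each was the lowest of its group. In DNMT3A library 4, DDIT4 was the lowest of its group at 14 FPKM, with a gap of 0.867. In control library 1, IGFBP4 was the highest of its group at 21.2 FPKM (gap 0.898), as was TRIB3 at 70.9 FPKM (gap 0.831), and FOXO1 was the lowest at 8.07 FPKM (gap 0.935).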

How the results depend on the processing

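IGFALS and DNMT3A kept direction and call under every alternative listed, IGFBP4 and IGF2R kept direction without a call, and IGFBP1 kept direction. IGFBP1 was 0.85 with no filter but missed the threshold (limma adjusted p = 0.0834), and 0.75 to 1.09 as each library was left out. INSR passed with array weights (0.22) and voom (0.24). With a library left out, IGF1R ran from -0.0092 to 0.0831 and IRS1 from -0.043 to 0.0548. IGF1R was -0.0092 without DNMT3A library 1 and -0.0033 without control library 2; IRS1 was -0.0294, -0.018, -0.043 and -0.0087 in its 4 reversals; FASN was -0.0112 with array weights and -0.0295 (without DNMT3A library 2) to 0.0977 with a library left out. The cause of these shifts was not tested.

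In all 2389 genes changed, 3756 with array weights, 1508 (without control library 3) to 2443 with a library left out. The 2 members called became 1 with no filter and 1 to 2 with a library left out. They became 3 with array weights, with voom and with voom and the low-count filter. Calls in the lists were 1 for ligands (reported 0) with array weights, voom and voom with the low-count filter, 1 for ligand release (0) with that filter, and 0 for other binding proteins and IGF2 mRNA-binding proteins (1 each) with no filter. Processing and sorting (1) had 0 with no filter, no trend or without chromosomes 13 and 14, and 4 with array weights. Adaptors (6) had 10 with array weights and with the low-count filter. The PI3K chain (5) had 1 with no filter, 3 with quantile normalization, 10 with array weights, 9 with voom, 10 with the low-count filter and 1 to 8 with a library left out; those ranges were 0 to 1 for ligands, other binding proteins, processing and sorting and IGF2 mRNA-binding proteins, 4 to 9 for adaptors, 2 to 3 for brakes and 7 to 10 for the FOXO list.

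The labels do not say whether replicate numbers pair the libraries. Deviations of same-numbered libraries from their group means correlated at 0.159, -0.0816, -0.0248 and 0.0978, and library 1 alone correlated best with its own number. Taken over all tested genes, these correlations show no clear pairing but cannot exclude one that touches some genes. With the number as a replicate block IGFBP1 (0.0206) and IGFALS (0.0162) kept their calls, and the calls were 1 for ligands, 0 for other binding proteins, 0 for processing and sorting, 1 for brakes, 3 for the PI3K chain and 0 for IGF2 mRNA-binding proteins. By gene, the block brought in IGF2 (limma adjusted p = 0.0342) and DDIT4 (0.0177) and ended the calls of IGFBP7 (0.0558), GGA2 (0.107), FBXW8 (0.0546), PIK3R1 (0.0634), SGK1 (0.0689), TSC1 (0.0877), RPS6KB1 (0.0787) and IGF2BP1 (0.0595).

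Between 6 and 27 reads per library lie behind IGFBP2 and IGFBP3, and 0 reads behind IRS2. FPKM is relative to the library, so a shift shared by all transcripts cannot be seen, and a table of transcripts says nothing of protein, phosphorylation or secretion.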
